A study of Homo sapiens with 3 samples.

Results

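Genes of 9 surface receptors that carry macromolecules, or that are used to carry them, across the blood-brain barrier were examined in open chromatin of hCMEC/D3. This cultured human line, immortalized from endothelial cells of brain microvessels, is widely used as a model of the barrier. The 9 genes, TFRC, INSR, IGF1R, LEPR, LRP1, LRP8, SCARB1, AGER and BSG, were chosen by symbol, and all 9 were found among the 20037 protein-coding genes of a GRCh38 gene table. The cells were sampled at passages 4 to 6, grown to confluence on plates coated with rat-tail collagen, without a second cell type, treatment or genotype. Of the 3 libraries, 1 ATAC-seq library (replicate 2) gave the results. The 2 RNA-seq libraries (replicates 1 and 2) list Ensembl transcripts without gene names, and were not used here. With 1 library there is no replicate error and no test between groups, so the values below describe this library.

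The capillaries of the brain are sealed by tight junctions, and large molecules reach the tissue mainly by receptor-mediated transcytosis. In that route a ligand binds its receptor on the blood side, is taken up in a coated vesicle and is sorted through endosomes to the other side. The transferrin receptor (TFRC), the insulin receptor (INSR) and BSG (basigin, CD147) are also used as handles for antibodies meant to enter the brain. ATAC-seq marks DNA that the Tn5 transposase can reach, such as active promoters and enhancers. It reads neither the amount of RNA nor of protein.

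The ATAC library held 22188172 tags after removal of duplicates, from which the authors called 106415 peaks. All 10 endothelial marker genes examined, among them PECAM1 and CDH5, had a peak within 1 kb of a gene end, with pileups from 10.01 tags at EMCN to 73.0 tags at ROBO4. Pileup is the mean number of extended tags stacked over a peak. The same was found for 4 of 5 neuronal, 2 of 5 astrocyte, 3 of 5 mural and 4 of 5 microglial or leukocyte markers. Their pileups ran from 8.5 tags at MYH11 to 56.8 tags at RGS5. Either end counted, so such a peak need not lie at the start of the gene. No peak was called in the gene or 10 kb either side for AQP4, KCNJ8 and ABCC9. Over all protein-coding genes 72.8% had a peak within 1 kb of either end, so such a peak alone does not mark a cell type.

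At least 1 peak within 1 kb of a gene end was found for 8 of the 9 receptor genes (88.9%, 95% Wilson interval 56.5% to 98.0%). AGER was the exception. The interval includes the 72.8% of all protein-coding genes. When the window was widened to the gene and 10 kb on either side, all 9 genes held a peak, as did 89.8% of protein-coding genes. The 9 windows held 112 peaks, of which 40 were at IGF1R and 21 at LEPR. The other 7 genes held from 2 peaks, at TFRC, to 15 peaks, at LRP1.

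**Figure D1:**
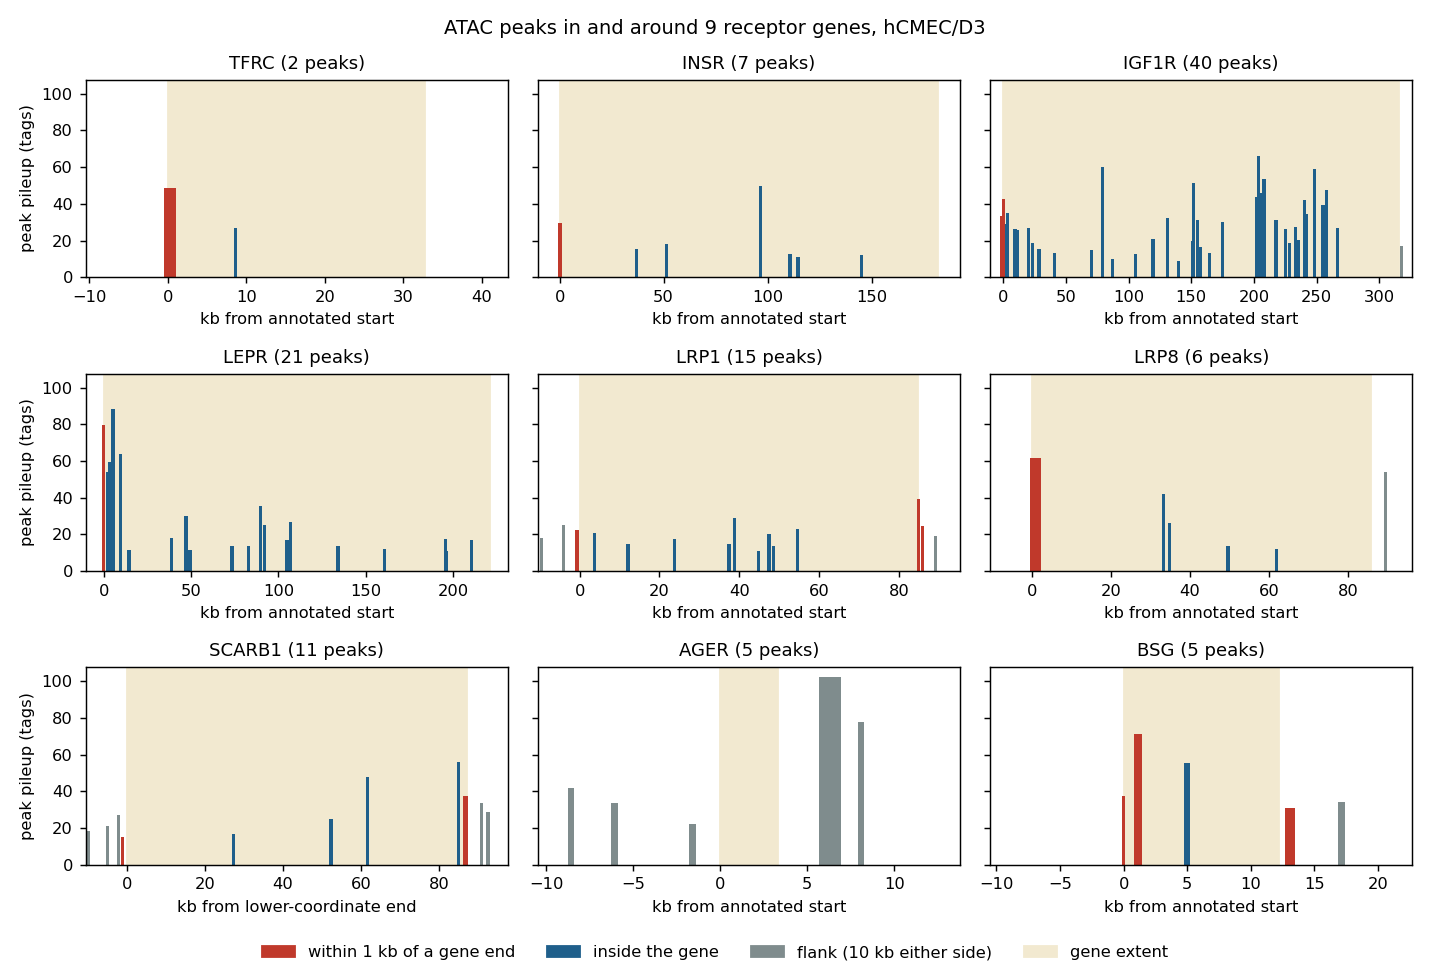
Peaks in and around each of the 9 receptor genes. Each bar is 1 peak, placed by the distance of its centre from the annotated start in kb (for SCARB1, from the lower-coordinate end), with its pileup in tags as height. Narrow peaks are drawn wider than they are so that they can be seen. The shaded area is the gene, red bars lie within 1 kb of a gene end, blue bars inside and grey bars in the flank. IGF1R carries 40 peaks, 12 of them within 1 stretch of 50 kb, and the strongest peaks of LEPR gather at its start, where LEPROT lies too. AGER has grey bars only.

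The annotated starts were examined next, since a peak over a start marks an open promoter. The promoter table gave a start for 8 of the 9 genes, all but SCARB1. A peak lay within 1 kb of a start for 7 of these 8, against 74% of the 15842 protein-coding genes with a start in the table. It covered the start base itself for 6 of the 8, TFRC, INSR, IGF1R, LEPR, LRP8 and BSG, against 68.7%. At LRP1 the peak ended 91 bp before the start, and AGER had no peak within 1 kb. Both shares rest on 8 genes, and their difference from the background was not tested.

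The bases before the start are shown for 6 of these genes, so that the 1 without a peak within 1 kb, AGER, can be read beside 5 that have one. Each run holds the 250 bases before the annotated start, 5′ to 3′ in the direction of the gene, from RefSeq on GRCh38.p14. Capitals mark every match, on either strand, to the motifs searched. These were TGANTCA (AP-1), GGGCGG (the GC box), CCGGAAGT (ETS), CACGTG (E-box), ACGTG (the hypoxia response core, which lies within the E-box) and CCAAT.
TFRC, chr3:196082091-196082340, minus strand: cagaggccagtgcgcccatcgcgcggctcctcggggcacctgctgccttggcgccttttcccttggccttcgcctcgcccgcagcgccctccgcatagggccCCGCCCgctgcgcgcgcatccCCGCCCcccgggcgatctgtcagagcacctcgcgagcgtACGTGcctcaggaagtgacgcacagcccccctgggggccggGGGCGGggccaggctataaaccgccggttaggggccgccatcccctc
IGF1R, chr15:98648289-98648538, plus strand: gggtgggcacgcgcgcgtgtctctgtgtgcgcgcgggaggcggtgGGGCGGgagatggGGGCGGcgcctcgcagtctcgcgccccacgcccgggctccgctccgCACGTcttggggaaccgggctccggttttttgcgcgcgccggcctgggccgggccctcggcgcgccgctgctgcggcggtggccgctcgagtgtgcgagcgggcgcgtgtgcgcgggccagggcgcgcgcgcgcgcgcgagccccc
LEPR, chr1:65420402-65420651, plus strand: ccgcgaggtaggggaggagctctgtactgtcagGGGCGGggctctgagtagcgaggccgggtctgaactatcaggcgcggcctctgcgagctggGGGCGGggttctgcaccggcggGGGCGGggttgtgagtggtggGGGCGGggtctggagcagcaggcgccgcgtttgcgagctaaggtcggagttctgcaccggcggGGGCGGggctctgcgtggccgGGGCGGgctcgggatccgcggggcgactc
LRP1, chr12:57128233-57128482, plus strand: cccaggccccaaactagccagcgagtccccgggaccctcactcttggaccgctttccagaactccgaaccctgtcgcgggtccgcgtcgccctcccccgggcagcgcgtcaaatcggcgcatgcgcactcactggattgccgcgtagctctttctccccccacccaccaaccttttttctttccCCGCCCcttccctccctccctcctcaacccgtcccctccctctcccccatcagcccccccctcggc
BSG, chr19:572346-572595, plus strand: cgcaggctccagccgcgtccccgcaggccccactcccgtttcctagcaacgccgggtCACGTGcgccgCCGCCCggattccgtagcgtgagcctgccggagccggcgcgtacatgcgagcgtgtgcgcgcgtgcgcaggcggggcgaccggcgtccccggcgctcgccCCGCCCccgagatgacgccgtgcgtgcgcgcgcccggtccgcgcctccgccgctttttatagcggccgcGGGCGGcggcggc
AGER, chr6:32184254-32184503, minus strand: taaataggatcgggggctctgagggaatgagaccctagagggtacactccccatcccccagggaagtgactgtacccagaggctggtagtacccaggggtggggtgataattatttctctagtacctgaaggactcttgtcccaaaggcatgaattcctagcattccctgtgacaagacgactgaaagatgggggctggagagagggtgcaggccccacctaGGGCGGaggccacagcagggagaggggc

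The AGER run held 3 CpG dinucleotides, an observed over expected ratio of 0.154. The other 5 runs held between 20 CpGs at LRP1 and 50 at the second start of BSG. Their ratios were 0.855 at TFRC, 0.909 at LRP1, 0.933 at LEPR, 1.18 at IGF1R and 1.31 at BSG. The ratio at that BSG start was higher than at 99.8% of the 22175 starts of protein-coding genes. Starts with a peak within 1 kb had a median ratio of 0.805 and starts without one a median of 0.264, and the AGER ratio lay below both medians. INSR and LRP8, not printed, had ratios of 0.732 and 0.849. The first BSG start, not printed either, was covered by a peak, yet its 250 bases held 13 CpGs at a ratio of 0.754, no GC box and 56.8% G and C, the same G and C share as at AGER.

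The GC box matched 3 times at TFRC, 2 at IGF1R, 6 at LEPR, 1 at LRP1, 3 at BSG and 1 at AGER, and it was present in 53.7% of all such windows. At TFRC and IGF1R the ACGTG core matched 1 time each. At the second BSG start it matched 2 times, both within its 1 CACGTG, which is read alike on either strand. ACGTG was present in 20.2% of windows and CACGTG in 7.38%. No match to TGANTCA, CCGGAAGT or CCAAT was present in the 6 runs, against 5.34%, 4.40% and 32.7% of windows. A match describes letters and is not a binding site.

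**Figure D2:**
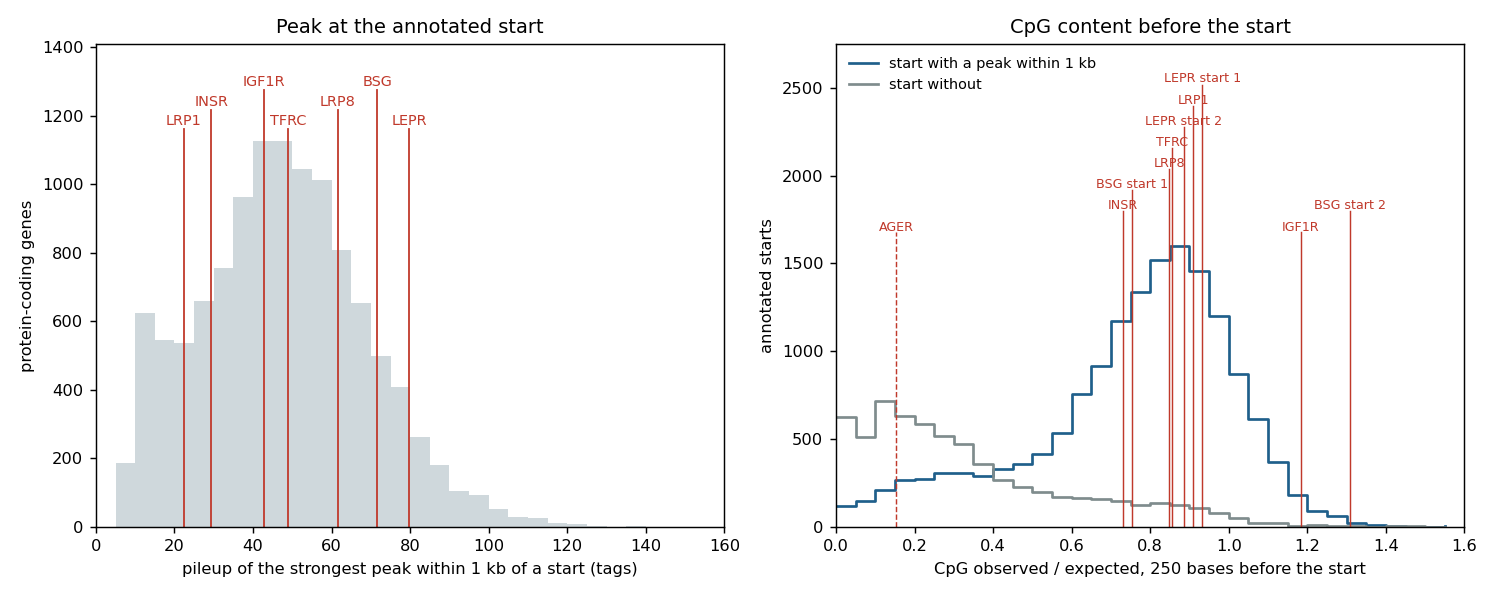
Left, the pileup in tags of the strongest peak within 1 kb of a start, as a histogram over 11724 protein-coding genes, with the 7 receptor genes that have such a peak as red lines from LRP1 at 22.4 tags to LEPR at 79.7. Right, the CpG observed over expected ratio in the 250 bases before a start, for starts with a peak within 1 kb (blue) and without (grey), with each receptor start as a red line. AGER, dashed, lies at 0.154 and the other starts at 0.732 or more.

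Among the 7 start peaks, pileups were 22.4 tags at LRP1, 29.4 at INSR, 42.7 at IGF1R, 48.8 at TFRC, 61.6 at LRP8, 71.6 at BSG and 79.7 at LEPR. The median over the 11724 protein-coding genes with a start peak was 47.0 tags, so 3 receptor genes lay below it and 4 above. LEPR stood above 93.2% of those genes and LRP1 above 13.8%. Fold enrichment, the pileup relative to the local background within 10000 bp, gave another order. It was 5.06 at TFRC, 5.04 at INSR, 4.13 at BSG, 3.80 at LEPR, 3.73 at LRP8, 3.54 at LRP1 and 3.005 at IGF1R. All 7 folds were below the median of 5.08.

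The local background differed between these peaks as well. It was 20.2 tags at LEPR, 16.6 at BSG, 15.8 at LRP8 and 13.5 at IGF1R, above the median of 8.05 tags at start peaks, and 8.84 at TFRC. It was 5.62 at LRP1 and 5.02 at INSR. It was computed here from pileup and fold, so it restates the folds above for a given pileup and is no separate observation. With no control library, it counts tags of this library within 10000 bp, those of neighbouring peaks included.

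TFRC binds iron-loaded transferrin and brings it into the cell, and it is the receptor most used for brain delivery. The gene spans 32.8 kb on chromosome 3 (196049284 to 196082090) and its window held 2 peaks. Of 2634 protein-coding genes within 25% of its length, called genes of similar length here, 17.3% had fewer peaks, and their median was 4 (quartiles 2 and 5.75). The start peak (chr3:196081055-196082539) was 1485 bp wide with 48.8 tags, above 53.4% of start peaks. The other peak (chr3:196073258-196073639) lay inside the gene, 8.64 kb from the start, with 26.7 tags over a width of 382 bp. Its fold of 8.20 was higher than that of 95.8% of all peaks. The local background there was 2.37 tags, the lowest value the caller allows, which follows from the genome size it was given, so this fold and its rank rest on that floor. It lies within 1 kb of an end of RNU7-18P, a small nuclear RNA pseudogene inside TFRC.

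INSR and IGF1R encode closely related tyrosine kinases, the receptors for insulin and for the insulin-like growth factors, and both are known to carry their ligands into the brain. INSR spans 182.2 kb on chromosome 19 (7112265 to 7294414) and held 7 peaks, against a median of 9 (quartiles 4 and 14) over 1136 genes of similar length, 37.6% of which had fewer. Its start peak (chr19:7293508-7295077) was 1570 bp wide, wider than 84.8% of start peaks, but with 29.4 tags above only 21.0% of them. The strongest INSR peak lay 96.5 kb into the gene (chr19:7197131-7198625), 1495 bp wide, with 49.5 tags and a fold of 5.95, within 1 kb of an end of LOC124904626. The remaining 5 peaks, all inside the gene, had 11.25 to 18.3 tags. Each of the 5 sat at the same floor of 2.37 tags.

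IGF1R, in contrast, held 40 peaks over its 316.0 kb on chromosome 15 (98648539 to 98964530). Of 610 genes of similar length, 97.9% had fewer and 11 had more, with a median of 11 (quartiles 5 and 20) and a maximum of 57. Peaks covered 7.51% of the IGF1R window, against a median of 1.78%. Of the 40 peaks, 37 lay inside the gene, 2 at its start and 1 in the flank. Only 4 of them lay within 1 kb of an end of another gene, IRAIN (an antisense RNA) or LOC124903561. With such peaks left out for every gene, IGF1R had 36 and the median gene of similar length 10.

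The start of IGF1R was broken into separate peaks, 286 to 777 bp wide, on a raised background. That background counts the tags of these neighbouring peaks too. From 98647098 to 98652039, 4 peaks had 33.5, 42.7, 29.2 and 35.1 tags, with folds of 2.43, 3.005, 1.98 and 2.36 over local backgrounds of 13.2 to 14.3 tags. The strongest peaks lay far from it. A stretch of 12 peaks ran from 98850921 to 98897546, 202.5 to 248.4 kb from the start, with 18.8 to 66.05 tags. Its highest, chr15:98851853-98852845, was the highest of the gene, with a fold of 4.09. The widest peak (chr15:98865334-98866961, 1628 bp) was part of the same stretch. The highest fold in the gene was 8.80, with 30.0 tags, at chr15:98822967-98823537. After a peak that ended at 98915940 none was called for 49858 bp, to the far end of the gene and beyond it.

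LEPR, the leptin receptor, spans 220.9 kb on chromosome 1 (65420652 to 65641559) and held 21 peaks. Of 901 genes of similar length, 84.6% had fewer, with a median of 10 (quartiles 5 and 16). Its signal was concentrated at the start. The 5 peaks of the first 10 kb, from 65419847 to 65430233, had 79.7, 53.9, 59.6, 88.4 and 63.5 tags. The other 16 had 11.02 to 35.55 tags, each below the lowest of these 5. The highest, chr1:65425643-65426148, lay 5.24 kb past the start and was higher than 99.3% of all 106415 peaks. The start peak (chr1:65419847-65421088) lies at the start of LEPROT too, a gene that begins at the same promoter, spans 15.34 kb and encodes a protein of vesicle trafficking. All 5 of these peaks, the highest included, overlap LEPROT, as do 6 of the 21 in all, so that the accessibility of one gene cannot be told apart from that of the other. The local background over the 5 peaks was 10.2 to 24.8 tags, and their folds were 2.13 to 5.76. The highest LEPR fold, 7.94, was at a peak of 29.9 tags 47.1 kb from the start (chr1:65467550-65467965).

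LRP1 and LRP8 belong to 1 family of lipoprotein receptors. LRP1 clears amyloid beta, apolipoprotein E and protease complexes, and LRP8 (ApoER2) binds reelin and apolipoprotein E. Their genes are almost of one length, 84.9 and 85.7 kb, but LRP1 held 15 peaks and LRP8 held 6. The median was 5 (quartiles 3 and 8) over 1989 and 1976 genes of similar length, of which 96.1% had fewer than LRP1 and 50.6% fewer than LRP8.

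Pileup at the start and the highest pileup of the gene were lower at LRP1 than at LRP8, whereas the median fold over the window was 4.66 at LRP1 and 4.23 at LRP8. On chromosome 12, LRP1 (57128483 to 57213361) had its highest pileup, 39.1 tags, at the far end (chr12:57213315-57213637), where 24.5 tags followed at chr12:57214324-57214595. Its start peak (chr12:57127302-57128392) had 22.4 tags, and the 9 peaks inside had 10.8 to 28.7. The highest LRP1 fold, 7.42, was at chr12:57167081-57167447. Of the genes of similar length with a peak, 27.7% had a lower maximum than LRP1. On chromosome 1, LRP8 (53242364 to 53328070) had 61.6 tags over its start, in a peak 2701 bp wide (chr1:53325784-53328484), wider than 99.7% of start peaks. That peak reaches LRP8-DT, a divergent transcript. The other pileups inside LRP8 were 42.25 and 26.2 tags, 33.3 and 34.8 kb from the start, and 13.7 and 11.8 farther in. The flank peak of 53.75 tags and a fold of 8.07 (chr1:53238202-53239012) was at the ends of MAGOH and MAGOH-DT.

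SCARB1 (SR-BI) takes up lipid from high-density lipoprotein. It spans 87.0 kb on chromosome 12 (124776856 to 124863864), and its window held 11 peaks. That was more than in 85.5% of 1959 genes of similar length, with a median of 6. However, 5 of the 11 were in the flank, and without the flank SCARB1 had 5 peaks against a median of 4. The highest, 55.8 tags with a fold of 5.46, was inside the gene 84.8 kb from the lower-coordinate end (chr12:124861471-124861847). Close by, the higher-coordinate end had a peak of 37.6 tags, 1288 bp wide (chr12:124862928-124864215), which is also at an end of LOC105370050. At the lower-coordinate end the peak had 15.3 tags. The highest fold, 7.94, was at a peak of 47.7 tags inside the gene (chr12:124838138-124838928).

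AGER (RAGE) binds advanced glycation end products, S100 proteins and amyloid beta, and carries amyloid beta from blood to brain. Its gene spans 3.29 kb on chromosome 6 (32180969 to 32184253) in a dense stretch of genes, with 5 other genes in its window against a median of 2 for genes of similar length. No peak lay inside AGER or within 1 kb of its ends. Of 1114 genes of similar length, 61.1% had an end peak and 37.4% had neither an end nor an inside peak. All 5 peaks of the window were in the flank, a pattern that 6.07% of protein-coding genes share. That share covers genes of all lengths and is not matched to so short a gene. The nearest was 354 bp wide (chr6:32185680-32186033), its near edge 1427 bp before the start, with 22.1 tags and at an end of PBX2.

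The strongest peak of all 9 windows belonged to that flank. It had 102.55 tags (chr6:32177332-32178584), above 99.8% of all peaks, was centred 6.29 kb past the AGER start and lay at ends of AGPAT1 and RNF5. A second one of 77.7 tags (chr6:32175975-32176329) lay beside it. The remaining peaks, 33.8 tags at ends of PBX2 and GPSM3 and 42.0 tags, were before the start. Counting by window alone would put AGER above 89.6% of genes of similar length, although none of its peaks touched the gene. The absence of a peak says that none was detectable at this depth and threshold. The lowest pileup called in the whole list was 8.0 tags, but local background at the peaks of this window was 5.30 to 20.6 tags. The peak of 42.0 tags had a fold of only 1.99, so the pileup needed for a call at AGER is not known.

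BSG is a surface glycoprotein that escorts monocarboxylate transporters to the membrane. The gene spans 12.2 kb on chromosome 19 (571283 to 583493) and its window held 5 peaks, more than in 78.8% of 2393 genes of similar length (median 3, quartiles 2 and 4). Starts were annotated at 571283 and at 572596, each under its own peak. The first (chr19:571148-571350) was 203 bp wide with 37.6 tags and a fold of 2.47, and the second (chr19:572110-572713) was 604 bp wide with 71.6 tags and a fold of 4.13. Both lie at an end of the antisense gene BSG-AS1. A peak of 55.8 tags followed inside the gene, at an end of LOC102724290, one of 31.1 tags at the far end and one of 34.3 tags in the flank. All 5 stood on local backgrounds of 8.72 to 16.6 tags.

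**Figure D3:**
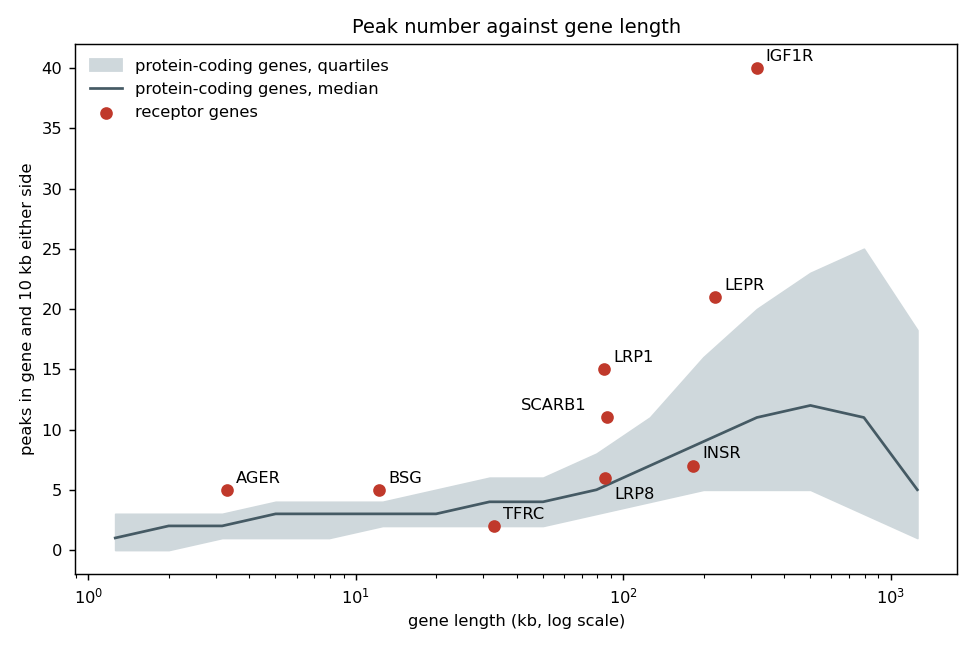
Number of peaks in the gene and 10 kb either side, against gene length in kb on a log scale. The line and the grey band are the median and the quartiles over protein-coding genes in groups of like length, and red points are the 9 receptor genes. IGF1R (40), LEPR (21), LRP1 (15), SCARB1 (11), AGER (5) and BSG (5) lie above the band, LRP8 inside it above the median, and INSR and TFRC below the median.

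Set against genes of similar length, 7 of the 9 receptor genes had more peaks than the median, which 42.8% of protein-coding genes did. TFRC and INSR had fewer. The 42.8% covers genes of all lengths, and a gene that equals its median is not counted in it. The share among genes as long as the receptor genes was not computed. The count was 6 of 9 with no flank, a flank of 1 or 20 kb, or lengths within 10%. It was 5 of 9 with peaks at other genes' ends left out, where LRP8 had 4 against a median of 4. Peaks of at least 4-fold gave 4 of 9. A −log10 q of at least 5, an overlap of at least 200 bp or lengths within 50% left it at 7. The share of protein-coding genes was not computed at these settings. Longer genes hold more peaks and the median receptor gene, at 85.7 kb, was longer than the median protein-coding gene, at 24.1 kb, which is why each gene was read against its own length group. The highest peak of the window lay inside the gene for 4 of the 9, INSR, IGF1R, LEPR and SCARB1, against 23.2% of protein-coding genes with a peak in the window. It lay at a gene end for TFRC, LRP1, LRP8 and BSG, against 48.3%, and in the flank for AGER, against 28.5%. The 4 genes with the highest peak inside are the 4 longest of the 9, and the 23.2% covers genes of all lengths. Among genes of similar length with a peak, the highest lay inside for 50.5% at the length of INSR, 61.4% at that of IGF1R, 53.2% at that of LEPR and 35.8% at that of SCARB1. For LEPR that peak lies in LEPROT as well.

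Of the 112 peaks, 82 (73.2%) lay inside a receptor gene, 14 (12.5%) at a gene end and 16 (14.3%) in the flank. Over the windows of all protein-coding genes these shares were 53.9%, 19.7% and 26.4%, which are not matched for gene length. IGF1R and LEPR gave 57 of the 82 inside peaks. Without them the other 7 genes held 51 peaks, of which 25 (49.0%) lay inside, 11 (21.6%) at an end and 15 (29.4%) in the flank. The median pileup was 26.4 tags, near the 25.1 tags over all protein-coding windows. Peaks inside the receptor genes had a median of 24.0 tags, against 20.5, and those at the ends 37.6 tags, against 41.4. At the ends the median fold was 3.53, against 4.72, and the median local background 9.52 tags, against 7.57. All 14 end peaks had a local background above the floor of 2.37 tags, but 23 of the 82 peaks inside the genes stood at that floor, where fold is pileup on another scale.

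**Figure D4:**
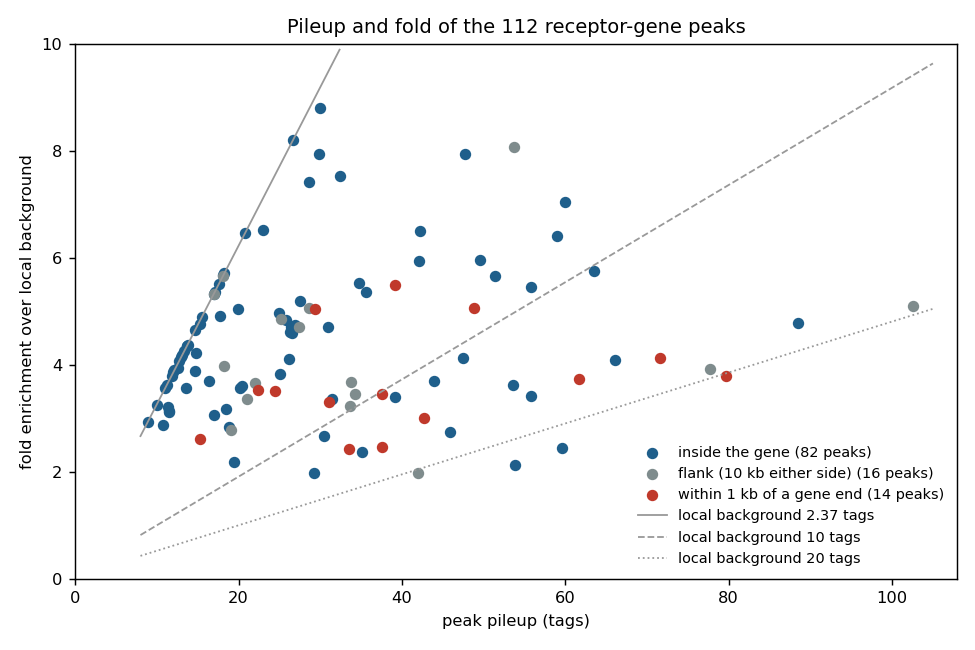
Fold enrichment over the local background against pileup in tags for the 112 peaks, coloured by position. The lines give the fold at a local background of 2.37 tags (the lowest the caller allows), 10 and 20 tags. The peaks with the most tags lie near the dotted line at folds of 5.10 or less, and the highest fold, 8.80, belongs to a peak of 30.0 tags.

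Other genes of the route were read the same way, from lists set up for this purpose. Coat and sorting genes, which form the vesicle and direct it through endosomes, had an end peak in 21 of 21 cases, the highest at AP2A1 with 113.8 tags, a subunit of the clathrin adaptor. The 72.8% of all protein-coding genes is the background for each of these counts, and it is not matched for gene length. Among partners of LEPR, LRP8, SCARB1, AGER and BSG it was 11 of 11, the highest at the kinase gene JAK2 with 91.45 tags. Genes that handle iron beside TFRC had one in 9 of 10 cases. The highest was FBXL5 with 76.0 tags, which senses iron, and the gene without was SLC11A2, a carrier of divalent metals. Signalling genes below INSR and IGF1R had one in 14 of 14 cases, with 108.7 tags at PTPN1, a phosphatase that acts on the insulin receptor.

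Ligands of the 9 receptors had an end peak in 10 of 14 cases. The highest was HMGB1 with 75.7 tags, a ligand of AGER, and INS, IGF1, LEP and A2M had none. For IGF1, of 86.0 kb, 1 peak was called in the window, in its flank, against a median of 5 for its length. Its receptor gene, IGF1R, of 316.0 kb, held 40 against a median of 11. The ligand genes INS and IGF2 went the other way from IGF1. INS held 4 peaks against a median of 1, all in its flank, and IGF2 held 6 against 3. Other receptors of uptake had an end peak in 15 of 19 cases. TFR2, SCARB2, CD36 and STAB2 had none.

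Relatives of the receptors, named here after their values were seen, did not share 1 pattern. TFR2, the second transferrin receptor, held 5 peaks and none at an end, whereas TFRC held 2 with 1 at its start. INSRR, related to INSR and IGF1R, had 19.5 tags at an end. In the lipoprotein receptor family, LRP2, a receptor of epithelia, held 7 peaks against a median of 10 for its length, and its end peak had 12.8 tags. The Wnt co-receptor genes LRP5 and LRP6 held 12 and 7 peaks, against a median of 8 for each, with 40.3 and 54.9 tags at an end. SCARB2, of the family of SCARB1, held 8 peaks with none at an end.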

How the data were processed

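The members and lists were chosen with earlier results of these data known. Builds GRCh38 and mm10 are named in the submitters' processing notes. The authors called broad peaks with MACS 2.2.7.1 on 1 library without a control, per the file headers. Tags were shifted by -100 bp and extended to 200 bp, with q limits of 0.05 and 0.1, in single-end mode. The effective genome size was 1870000000 bp, the caller's mouse preset, which sets the background floor. For each peak the authors deposited its pileup as a signal in tags, a ratio (fold enrichment), and −log10 of the p-value and of the q-value, each a mean over the peak. These are the authors' values and only describe or filter peaks within this list.

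Of 31532245 tags, 22188172 remained after keeping 1 per position. Peaks were joined to RefSeq tables of GRCh38.p14 with an overlap of at least 1 bp (Python 3.11.15, pandas 2.3.3). Starts covered by a peak numbered 62.6% in place, and 4.06% at most with peaks moved by 2000 to 50000 bp. Each peak was placed once, at a gene end (1 kb either side), else inside, else in the 10 kb flank. Local background was computed from pileup and fold with a pseudocount of 1. The gene table carries no exons, so introns and exons were not told apart. Overlap counts were tested on simulated data. All 9 members were named, with their highest, widest, start and highest-fold peaks where these add to the account, and of each list the highest end peak and the genes without one; the highest of the list of other uptake receptors is not reported here. Intervals over genes cover counting error only. RNA tables were not used. Alternatives were stricter peak filters, overlaps, windows, flanks and length groups.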

Additional observations from a re-analysis of the deposited data

How the results depend on the processing

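Of 30 alternative values of the summary results, 26 stayed near the reported ones (within 1.5-fold for a count, within the 95% binomial interval of the median for the pileup, 21.1 to 29.4 tags) and 4 moved, all with peaks of at least 4-fold only. That filter left 4 of 9 genes with an end peak (56.0% of protein-coding genes) and 3 of 8 with a start peak (57.1%). It left 60 peaks in the windows in place of 112, and 4 of 9 genes above the median of similar length. The share of protein-coding genes above that median was not computed with it. Fewer peaks enter by construction. The pileup interval treats the 112 peaks as independent, although 61 of them were at IGF1R and LEPR. The alternatives reuse many of the same peaks, so a median within that interval says little. For single genes 48 of 63 values stayed near. AGER had 0 peaks without the flank. Its nearest peak counted as an end peak in windows of 2500 bp, which gave 9 of 9 genes, against 79.2% of protein-coding genes. BSG had 1 peak with the fold filter against a median of 2, and TFRC 1 and BSG 2 with peaks at other genes' ends left out, against medians of 3 and 2. No paired analysis was possible because replicate number 2 alone occurs in both assays and no test was made. The effective genome size of the caller could not be varied from a peak list.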

Other observations

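Among the listed signalling genes of the insulin and IGF route, 13 of 14 had more peaks than the median gene of similar length. The share was 42.8% over protein-coding genes of all lengths. The genes named here were chosen after their values were seen. PTPN1 held 19 peaks and IGFBP7, which binds insulin-like growth factors, held 18, each against a median of 5. GRB10, an adaptor that dampens both receptors, held 18 against 9, and IRS1, the main docking protein below both receptors, held 12 against 5. Another 5 of the 13, AKT1, AKT2, GRB2, IGFBP3 and IRS2, exceeded their median by 1 peak only. PIK3CA was the exception, with 5 against 6. In the coat and sorting list, where all 21 genes had an end peak, 10 of 21 had more peaks than the median of their length. The same count was 8 of 10 for endothelial, 4 of 5 for neuronal, and 3 of 5 each for astrocyte, mural and microglial or leukocyte markers. These counts describe 1 library, and no difference between lists was tested.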
